A study of Mus musculus with 6 samples.

Results

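The 8 genes described here encode inhibitors of proteases, and their RNA was measured in marrow-derived dendritic cells of the mouse. They are the WAP-domain inhibitors Slpi and Wfdc17, the cystatins Cst3 and Cstb, and the serpins Serpinb2, Serpinb9, Serpina3f and Serpina3g. They were taken by name from the deposited expression table, and all 8 were found among its 23398 genes. The labels give this single cell type and a treatment of 12 hours with Ca(OH)2 nanoparticles (3 libraries) or with vehicle (3 libraries). Both groups were grown in the same serum-containing medium, and the labels used here name neither the mouse strain and age nor a growth factor or a particle dose. Nothing says that the 3 libraries of a group came from separate animals or cultures, so p-values measure only the spread between these libraries, which may be technical.

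Proteases cut proteins irreversibly, and cells that carry them also make inhibitors that trap them. WAP-domain inhibitors and cystatins are small proteins that block the active site reversibly, WAP proteins mostly acting on serine proteases of leukocytes and cystatins on lysosomal cysteine cathepsins. Serpins are larger suicide substrates: the protease cuts a loop of the serpin, which then snaps shut and holds the enzyme for good. In dendritic cells cathepsins shape antigen for MHC class II. Slpi and Cst3 have a signal peptide and are exported. Cstb, Serpinb2, Serpinb9 and Serpina3g are known mainly as inhibitors inside the cell, so the group is better described as protease inhibitors than as secreted ones. Transcript levels do not show where a protein goes.

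The tables hold FPKM (fragments per kilobase of gene, here relative to a scale of each library), and they rest on 17236746 to 21937277 recovered reads per library. Groups were compared with limma on log2(FPKM + 1), over the 10682 genes that reached 1 FPKM or more in 3 or more of the 6 libraries, and a Benjamini-Hochberg adjusted p under 0.05 counted as a change. Nanoparticle library 1 stood apart from the other nanoparticle libraries, so the inhibitor genes are given with and without it. It lay more than 1.5 times from the mean of nanoparticle libraries 2 and 3 in 4511 (42.2%) of the tested genes. In RNA from whole cultures, fewer cells of a type and less RNA per cell cannot be told apart. The dendritic cell markers Itgax (248 to 456 FPKM), H2-Ab1 (494 to 1162 FPKM) and Cd74 (2270 to 5273 FPKM) were present in every library, each lowest in nanoparticle library 1. Clec10a, Clec9a, Zbtb46 and Batf3 were also lowest there among the nanoparticle libraries. Others were highest there: Irf8 (24.1, 21.1 and 18.4 FPKM in nanoparticle libraries 1 to 3), Irf4 (44.7, 32.5 and 29.9 FPKM), Xcr1 (2.21, 0.828 and 0.711 FPKM) and Flt3. Of the 12 listed dendritic cell markers 10 were tested: Cd209a (5.69 to 0.0254 FPKM in the mean), Clec10a (6.92 to 0.786 FPKM), Clec9a and Zbtb46 fell, Irf8 rose, and Flt3 was at most 0.0793 FPKM. Cd209a passed the filter only through the vehicle libraries. Among all tested genes 16.2% fell and 17.0% rose. All 8 listed T and NK cell markers stayed below 1 FPKM in every library.

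Of the 8 inhibitor genes 7 passed the filter on low values, and 5 of these 7 rose with nanoparticles: Serpinb2, Serpinb9, Slpi, Serpina3g and Cstb. Among all tested genes 33.2% changed, made up of 17.0% upward (1817 genes) and 16.2% downward (1733 genes). With libraries scaled to the same sum of FPKM these were 884 upward and 4241 downward, and with limma-voom on reads scaled by totals 1068 upward and 3588 downward, while the same count of 5 inhibitor genes rose and 0 fell under both. Wfdc17 and Cst3 did not pass the test. Groups did not overlap in 6 of the 8 genes, Serpina3f included, each higher with nanoparticles, where 52.1% of all tested genes had groups that did not overlap, 25.9% higher and 26.2% lower. Serpina3f was too low in 4 of the 6 libraries to pass the filter and has no place in the count of changes. The median log2 change of the 7 was 1.499, beside -0.0010 for all tested genes. Without nanoparticle library 1 all 7 tested genes passed, all upward, where 64.8% of all genes passed and 34.3% passed upward. Without any 1 vehicle library, or without nanoparticle library 2, the number was 4, since Cstb no longer passed.

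**Figure D1:**
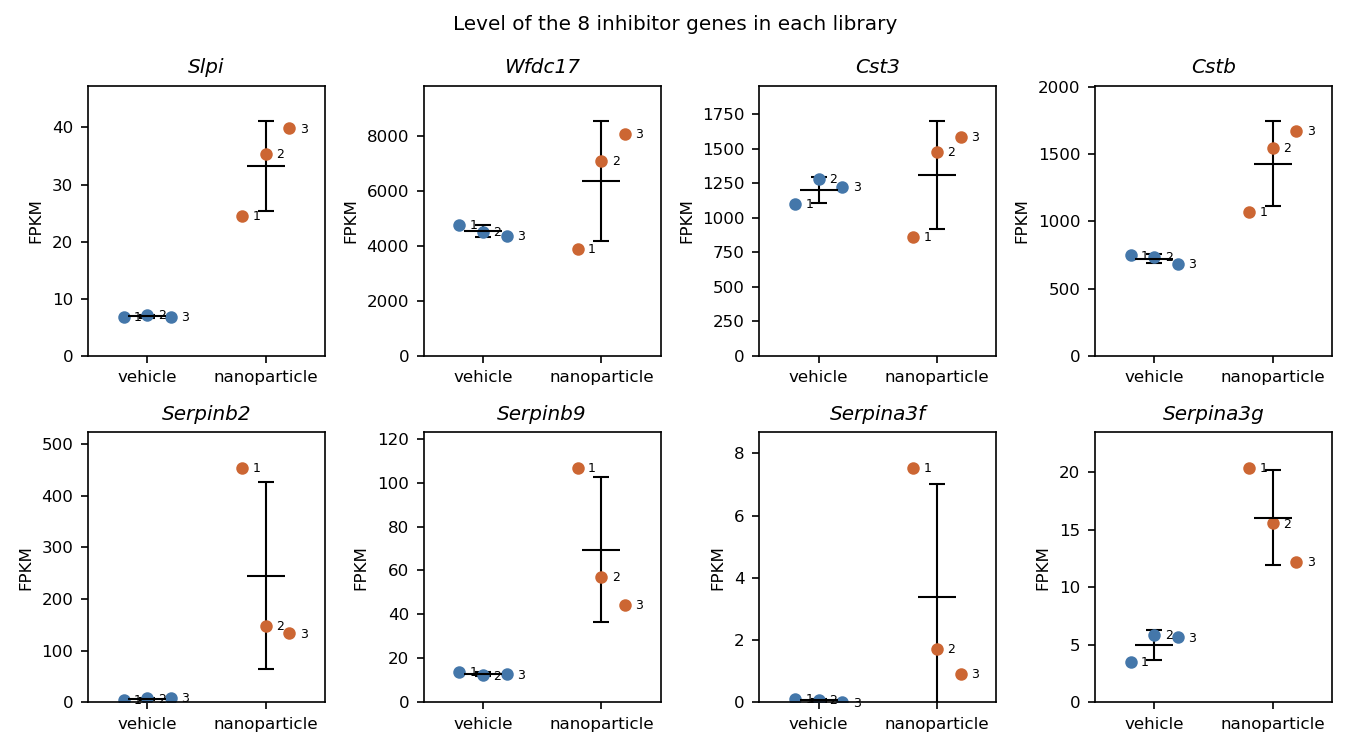
Level of each inhibitor gene in FPKM (vertical axes, each from 0) in the 3 vehicle and 3 nanoparticle libraries. Each point is 1 library with its number beside it, and the horizontal bar and whiskers are the group mean and SD (for Serpina3f the lower whisker runs below 0 and is clipped). Nanoparticle library 1 is the lowest nanoparticle library in the upper row and the highest in the lower row.

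The WAP-domain genes differed widely in level and in their change. Slpi, an inhibitor of neutrophil elastase and cathepsin G (ENSMUSG00000017002, minus strand of chromosome 2, 164354070 to 164389095 on GRCm38), was at 6.81, 7.22 and 6.82 FPKM in vehicle libraries 1 to 3. It was at 24.5, 35.3 and 39.8 FPKM in nanoparticle libraries 1 to 3. The lowest nanoparticle library thus lay above every vehicle library. The mean went from 6.95 ± 0.238 to 33.2 ± 7.86 FPKM (n = 3 per group, ± SD). In limma its log2 change was 2.08 (SE 0.183, adjusted p = 0.000504). It was 2.28 without nanoparticle library 1 (limma adjusted p = 2.1e-06). The Slpi levels rest on 160 to 169 reads in vehicle and 473 to 906 reads in nanoparticle libraries.

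Slpi is also known as a product of neutrophils. Of the 15 listed neutrophil markers 7 passed the filter, 3 rose and 1 fell, where 17.0% of all tested genes rose and 16.2% fell. The summed level of the 15 markers was 390 to 461 FPKM in vehicle and 334 to 485 FPKM in nanoparticle libraries. The markers that rose were Lcn2 (0.234 to 50.4 FPKM in the mean), Csf3r (0.586 to 4.21 FPKM) and S100a8 (34.9 to 83.1 FPKM), and Mmp8 fell from 245 to 130.0 FPKM. Lcn2 and Csf3r were below 1 FPKM in every vehicle library and passed the filter only through the nanoparticle libraries. Elane and Mpo were listed at 0 in 5 libraries each, and Ly6g was at most 0.192 FPKM. Camp and Ngp, below the filter, were highest in nanoparticle libraries 2 and 3 (1.83 and 1.99 FPKM for Camp, 4.30 and 3.23 FPKM for Ngp). Cxcr2, also below the filter, went the other way. It was at 0.395, 0.761 and 0.801 FPKM in vehicle and at 0.0201, 0.139 and 0 FPKM in nanoparticle libraries 1 to 3. S100a9 was at 0.962, 0.966 and 1.65 FPKM in vehicle and at 0.352, 13.2 and 10.2 FPKM in nanoparticle libraries 1 to 3. Nanoparticle libraries 2 and 3, the higher ones for Slpi, were thus also the higher ones for S100a9, S100a8, Camp and Ngp. Mmp9 and Chil3 were also lowest in nanoparticle library 1. Csf3r was instead highest in nanoparticle library 1 (4.90, 3.85 and 3.87 FPKM in libraries 1 to 3). Lcn2 (52.3, 46.4 and 52.5 FPKM) and Mmp8 (129, 133 and 129 FPKM) did not follow the order of Slpi. Among all tested genes 46.3% were lowest in nanoparticle library 1. The part of the neutrophil markers in the Slpi result was not tested.

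Wfdc17, a small WAP-domain protein of myeloid cells (ENSMUSG00000069792, plus strand of chromosome 11, 83703991 to 83706268), was among the 9 highest genes of every library by FPKM. It was at 4778, 4514 and 4357 FPKM in vehicle libraries and at 3908, 7113 and 8078 FPKM in nanoparticle libraries 1 to 3. Nanoparticle library 1 lay below all vehicle libraries, and nanoparticle libraries 2 and 3 lay above them. The means were 4549 ± 213 and 6366 ± 2183 FPKM (n = 3 per group, ± SD), and the log2 change of 0.42 (SE 0.317, limma adjusted p = 0.357) did not pass. With nanoparticle library 1 left out it was 0.74 (limma adjusted p = 0.000301), and with libraries scaled to the same sum of FPKM it was -0.052 (limma adjusted p = 0.871). Wfdc17 gave 60.5% to 71.8% of the summed FPKM of the 8 genes in each library.

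The cystatins exchanged places in FPKM, though not in reads. Cst3 encodes cystatin C, an exported inhibitor of cathepsins that is abundant in dendritic cells (ENSMUSG00000027447, minus strand of chromosome 2, 148871722 to 148875692). It was at 1100.3, 1282 and 1222 FPKM in vehicle and at 863, 1475 and 1586 FPKM in nanoparticle libraries 1 to 3. The groups overlapped, with nanoparticle library 1 lowest of all 6. The means were 1202 ± 92.8 and 1308 ± 389 FPKM (n = 3 per group, ± SD), and the log2 change was 0.08 (SE 0.266, limma adjusted p = 0.852). It was 0.35 without nanoparticle library 1 (limma adjusted p = 0.00799) and -0.39 with libraries scaled to the same sum of FPKM (limma adjusted p = 0.144).

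Cstb encodes cystatin B, a cathepsin inhibitor of the cytosol and nucleus (ENSMUSG00000005054, plus strand of chromosome 10, 78425669 to 78427622). It was at 746, 734 and 683 FPKM in vehicle and at 1072, 1542 and 1670.3 FPKM in nanoparticle libraries 1 to 3, with no overlap. The mean rose from 721 ± 33.4 to 1428 ± 315 FPKM (n = 3 per group, ± SD). In limma its log2 change was 0.96 (SE 0.209, adjusted p = 0.0145). This call was lost with no filter on low values (limma adjusted p = 0.0755) and on leaving out any vehicle library or nanoparticle library 2 (limma adjusted p = 0.0545 to 0.0746). The ratio of Cstb to Cst3, in FPKM, was 0.678, 0.573 and 0.559 in vehicle libraries and 1.24, 1.05 and 1.05 in nanoparticle libraries. By FPKM, Cst3 was the higher in every vehicle library and Cstb in every nanoparticle library. In reads Cst3 was the higher in every library of both groups. Nanoparticle libraries 1 to 3 had 17849, 30907 and 38703 reads for Cst3 and 10559, 15387 and 19409 for Cstb. Which of the 2 is higher with nanoparticles thus depends on the gene lengths used, 1266 bases for Cst3 and 603 bases for Cstb. The ratio does not depend on the scaling between libraries, and its difference reached the smallest p that 3 against 3 libraries allow (exact permutation test, two-sided, p = 0.1).

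Among the serpins of clade B, Serpinb2 had the widest difference. Serpinb2, also called plasminogen activator inhibitor type 2, is an inhibitor of urokinase that stays largely in the cell (ENSMUSG00000062345, plus strand of chromosome 1, 107511423 to 107535478). It was at 4.9999, 7.82 and 8.89 FPKM in vehicle and at 454, 149 and 134 FPKM in nanoparticle libraries 1 to 3. The lowest nanoparticle library was far above the highest vehicle library, and library 1 was about 3 times as high as libraries 2 and 3. The mean went from 7.24 ± 2.01 to 246 ± 181 FPKM (n = 3 per group, ± SD), a ratio of 33.9. In limma its log2 change was 4.70 (SE 0.487, adjusted p = 0.000886). Over the other 5 libraries, nanoparticle library 1 left out, it was 4.14 (adjusted p = 1.2e-05 in limma). By FPKM, Serpinb2 ranked 4075 to 5981 among all genes in vehicle and 113 to 482 in nanoparticle libraries.

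Serpinb9 is an inhibitor of granzyme B that protects immune cells from their own or a neighbour's cytotoxic granules (ENSMUSG00000045827, plus strand of chromosome 13, 33003250 to 33017957). It was at 13.7, 12.3 and 12.7 FPKM in vehicle and at 107, 57.0 and 44.4 FPKM in nanoparticle libraries 1 to 3, again with separate groups and with library 1 highest. The mean went from 12.9 ± 0.709 to 69.4 ± 33.0 FPKM (n = 3 per group, ± SD). In limma its log2 change was 2.24 (SE 0.309, adjusted p = 0.00258). Its value without nanoparticle library 1 was 1.89 (limma adjusted p = 2.3e-05).

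Bases just before the RefSeq start sites (build GRCm38.p6) are shown for these serpins, since the clade B genes that rose carried matches to different motifs. For Serpinb2 the window is chr1:107511303-107511422 on the plus strand, with matches to AP-1 (TGANTCA) and the TATA box (TATAAA) in capitals. For Serpinb9 it is chr13:33004421-33004540 on the plus strand, with a match to the interferon-stimulated response element (ISRE), read on the opposite strand, in capitals.
Serpinb2: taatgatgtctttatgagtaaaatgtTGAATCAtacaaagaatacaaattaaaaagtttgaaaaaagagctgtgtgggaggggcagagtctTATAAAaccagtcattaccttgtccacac
Serpinb9: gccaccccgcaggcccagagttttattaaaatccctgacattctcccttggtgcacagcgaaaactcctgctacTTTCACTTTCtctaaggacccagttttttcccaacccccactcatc
Over all 32851 RefSeq windows of 250 bases before a start site, searched on both strands, 6.75% held the AP-1 letters, 12.4% the TATA box and 2.98% the ISRE. A match is a run of letters and not a measured binding site, and the first listed RefSeq start of each gene was used, which lies inside the gene span given above for Slpi (by 32.6 kb), Serpinb9 (by 1.3 kb), Cst3 (by 180 bases) and Wfdc17 (by 65 bases).

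Serpina3g and Serpina3f are clade A serpins that lie next to each other in a cluster of close relatives on chromosome 12. Serpina3g, also known as Spi2A and described as an inhibitor of cathepsins in the cytosol (ENSMUSG00000041481, plus strand, 104236245 to 104241939), was at 3.53, 5.90 and 5.64 FPKM in vehicle. It was at 20.4, 15.6 and 12.2 FPKM in nanoparticle libraries 1 to 3, and every nanoparticle library was above every vehicle library. The mean rose from 5.02 ± 1.30 to 16.1 ± 4.11 FPKM (n = 3 per group, ± SD). In limma its log2 change was 1.499 (SE 0.236, adjusted p = 0.00424), and it was 1.32 without nanoparticle library 1 (limma adjusted p = 0.00139).

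Serpina3f (ENSMUSG00000066363, plus strand, 104214544 to 104221129) was close to the limit of detection in vehicle, where 5, 4 and 0 reads gave 0.110, 0.0881 and 0 FPKM. With nanoparticles 282, 65 and 41 reads gave 7.54, 1.72 and 0.929 FPKM. In reads divided by the scale of each library, the nanoparticle group was 50.1 times the vehicle group (95% interval 26.1 to 110.4, from the exact conditional test of 388 against 9 reads, covering counting error only). Nanoparticle library 1 alone held 282 of the 388 reads, and without it the ratio was 19.9 (95% interval 10.1 to 44.8). With no filter on low values, limma gave a log2 change of 1.74 for Serpina3f (adjusted p = 0.106), which did not pass.

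Reads of these neighbours can be hard to assign. Of all runs of 50 bases in the GENCODE M21 transcripts of Serpina3f, 10.6% occurred also in another gene, mostly Serpina3g, and for Serpina3g the share was 15.5%, mostly with Serpina3h and Serpina3i. For Serpinb2 it was 10.4%, all shared with Serpinb10. Serpinb10, below the filter, was at 0.446, 0.911 and 0.851 FPKM in vehicle and at 0.0175, 0.0346 and 0.0297 FPKM in nanoparticle libraries 1 to 3. For Serpinb9 the share was 0.378%, and for Slpi, Wfdc17, Cst3 and Cstb it was 0. The read length and the treatment of shared reads are not given in the sources used here, so the levels of Serpina3f and Serpina3g are uncertain to that extent.

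The regions before Serpina3f and Serpina3g are shown together, because the neighbours were higher together and the regions align to each other. The Serpina3f stretch is chr12:104214294-104214446 and the Serpina3g stretch is chr12:104235984-104236146, both on the plus strand of GRCm38.p6, and 126 of 164 aligned columns (76.8%) were identical. Capitals mark matches to the interferon gamma-activated sequence, GAS (TTCNNNGAA), in both and to NF-kappaB in Serpina3g.
Serpina3f: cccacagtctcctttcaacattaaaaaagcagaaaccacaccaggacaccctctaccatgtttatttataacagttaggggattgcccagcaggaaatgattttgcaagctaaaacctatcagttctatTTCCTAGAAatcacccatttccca
Serpina3g: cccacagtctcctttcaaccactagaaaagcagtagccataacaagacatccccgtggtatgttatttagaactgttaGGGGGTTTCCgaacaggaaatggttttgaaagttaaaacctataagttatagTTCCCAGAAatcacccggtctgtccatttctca
The GAS letters fell in the same aligned columns of both genes. Because the RefSeq start sites lie at different points of the aligned sequence, the match begins at position -121 of Serpina3f and at position -33 of Serpina3g, where -1 is the last base before the start. GAS letters were present in 7.02% and NF-kappaB letters in 7.25% of all windows.

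**Figure D2:**
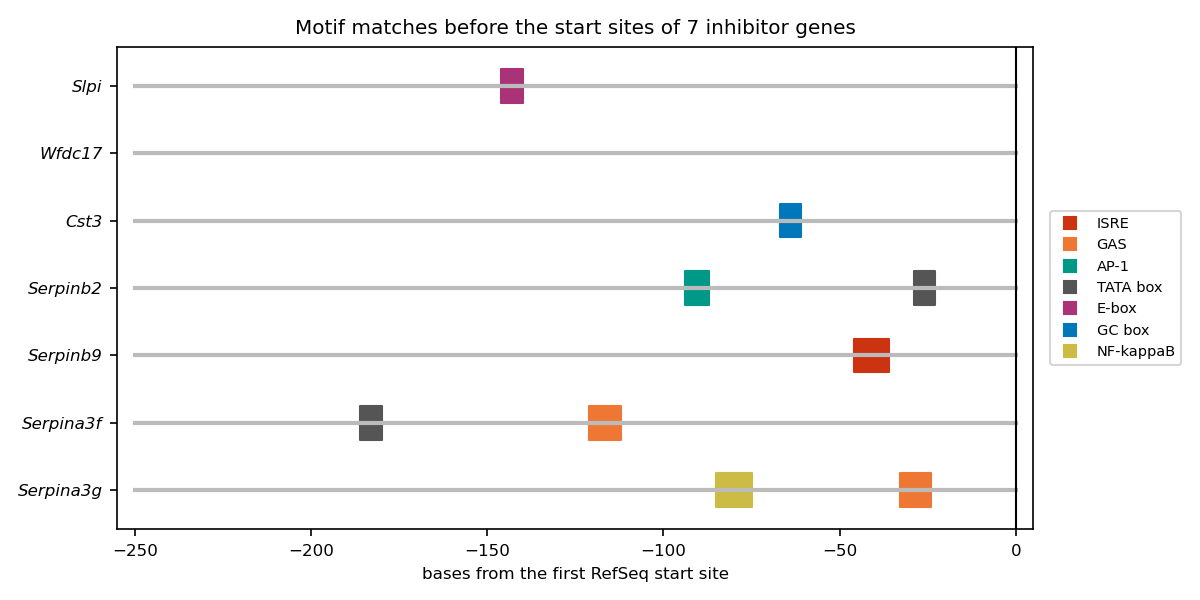
Matches to 7 motifs (colours) in the 250 bases before the first RefSeq start site of 7 inhibitor genes (rows), with bases from the start site on the horizontal axis. The GAS match begins at -121 in Serpina3f and at -33 in Serpina3g, the ISRE match of Serpinb9 begins at -46, and Wfdc17 has no match to the letters searched.

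The RefSeq table held windows for 7 of the 8 genes. Besides the matches shown, before the first listed start Slpi had an E-box (CACGTG, in 6.02% of all windows) that began at position -146, and Cst3 a GC box (GGGCGG, in 32.7%) that began at position -67. Serpina3f also had the TATA letters on the opposite strand. Before its second listed start, Serpinb2 had GAS letters too (TTCCAAGAA), beginning at position -77 of that start. The CRE letters (TGACGTCA, in 1.55% of all windows) were searched as well and were not in any of the members' windows.

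The 8 genes split by family in how nanoparticle library 1 compared with libraries 2 and 3. All 4 serpins were highest in library 1 and lowest in library 3, and the WAP genes and cystatins were lowest in library 1 and highest in library 3. As a ratio of library 1 to the mean of libraries 2 and 3, in FPKM, Serpina3f was at 5.70, Serpinb2 at 3.22, Serpinb9 at 2.10 and Serpina3g at 1.47. Cstb was at 0.668, Slpi at 0.653, Cst3 at 0.564 and Wfdc17 at 0.514. Among all tested genes library 1 was the highest nanoparticle library in 42.3% and the lowest in 46.3%, so neither position is rare. The 8 other tested serpins did not share one order. Serpinb1b, Serpinb6a, Serpinb6b and Serpinb12 were lowest in nanoparticle library 1, and Serpinb1a, Serpinb8, Serpinb9b and Serpine2 were highest there. Some markers of other cells were also highest in nanoparticle library 1, and others were not. The summed level of 8 mast cell and basophil markers was 3.93 to 6.16 FPKM in vehicle and 26.1, 11.0 and 10.3 FPKM in nanoparticle libraries 1 to 3. Most of it came from Hdc (24.1, 6.69 and 6.76 FPKM), while Mcpt8, Ms4a2 and Tpsb2 were at most 0.140 FPKM. Kit (1.09, 0.753 and 0.711 FPKM) was highest in library 1 as well. Cpa3 (0.0807, 1.47 and 1.47 FPKM) and Gata2 (0.817, 1.71 and 1.40 FPKM) were lowest there, and Gata2 fell (limma adjusted p = 0.0190). The summed level of 6 stromal markers was at most 0.119 FPKM in vehicle and 3.82, 1.39 and 0.922 FPKM with nanoparticles. Of the 12 macrophage markers 4 rose (Cd14, Adgre1, Fcgr1 and Cd68) and 5 fell (among them Mrc1, C1qa, C1qb and C1qc). Among all tested genes 17.0% rose and 16.2% fell. The summed level of the macrophage markers was 15477 to 16844 FPKM in vehicle and 13042, 17186 and 18659 FPKM with nanoparticles, and it was nearly all Lyz2 (11167, 15703 and 17124 FPKM with nanoparticles). Lyz2 was lowest in nanoparticle library 1 like the WAP genes and cystatins, and Adgre1 (276, 141 and 132 FPKM), Cd14, Cd68 and Fcgr1 were highest there like the serpins. Their part in the split was not tested.

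In vehicle Wfdc17 was highest, followed by Cst3, Cstb, Serpinb9, Serpinb2, Slpi, Serpina3g and Serpina3f by mean FPKM, a scale that takes gene length into account. Each neighbour in this order was separate from the next over the 3 vehicle libraries except Serpinb2 and Slpi, which overlapped. With nanoparticles the order was Wfdc17, Cstb, Cst3, Serpinb2, Serpinb9, Slpi, Serpina3g and Serpina3f, and Cstb and Cst3 overlapped. The summed level of the 4 serpins was 22.3 to 27.3 FPKM in vehicle libraries and 589, 223 and 191 FPKM in nanoparticle libraries 1 to 3. They were 0.336% to 0.433% of the summed FPKM of the 8 genes in vehicle libraries and 9.12%, 2.15% and 1.65% in nanoparticle libraries 1 to 3.

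**Figure D3:**
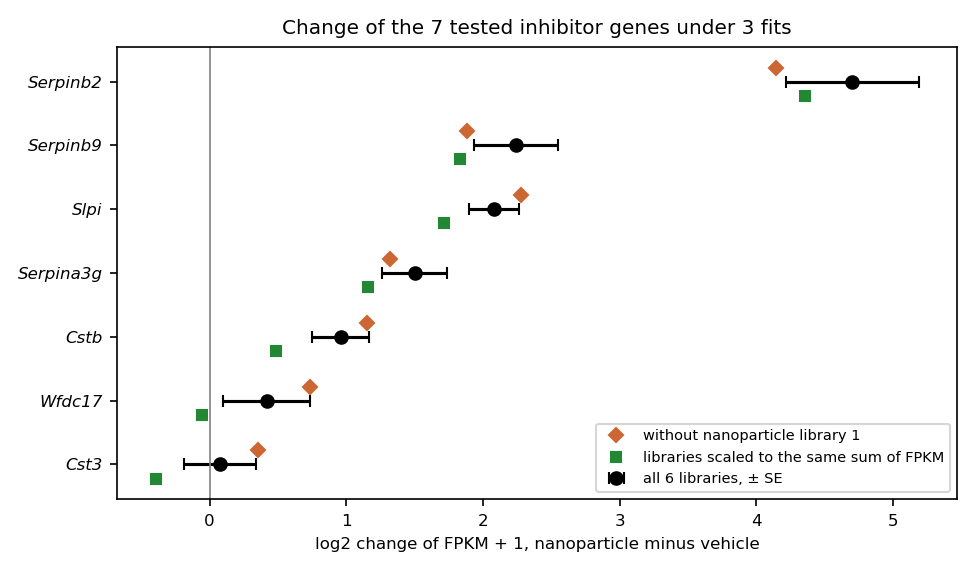
Log2 change of FPKM + 1, nanoparticle minus vehicle (horizontal axis), of the 7 tested inhibitor genes. Circles with whiskers are the change ± SE over all 6 libraries, diamonds the change without nanoparticle library 1 and squares the change with libraries scaled to the same sum of FPKM. Slpi, Serpina3g, Serpinb9 and Serpinb2 lie above 1 under all 3, and Wfdc17 and Cst3 lie on either side of 0.

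Related inhibitors were counted from lists of the same families. Of 51 other serpins listed 24 were in the table and 8 passed the filter, of which 3 rose: Serpinb9b, Serpinb6b and Serpine2. Among all tested genes 17.0% rose. Serpinb9b, a close relative of Serpinb9, was at 48.9, 39.7 and 43.0 FPKM in vehicle and at 92.1, 91.2 and 80.1 FPKM in nanoparticle libraries 1 to 3 (log2 change 0.99, SE 0.126, limma adjusted p = 0.00189). Serpine2, which encodes the thrombin and urokinase inhibitor protease nexin 1, was at 28.5 FPKM in nanoparticle library 1 and at 4.11 and 3.60 FPKM in libraries 2 and 3, against 0.743 to 0.769 FPKM in vehicle (limma adjusted p = 0.0444). Serpinb6b was at 4.28 to 5.92 FPKM in vehicle and at 10.0, 29.5 and 24.1 FPKM with nanoparticles (limma adjusted p = 0.0126). It was lowest in nanoparticle library 1, unlike the serpins among the 8 inhibitor genes. Leaving nanoparticle library 1 out put Serpinb9b, Serpinb6b and Serpine2 at log2 changes of 0.95, 2.25 and 1.46. Serpine2 passed the filter only through the nanoparticle libraries. The Serpine2 call was lost with no filter (limma adjusted p = 0.103), and without any 1 vehicle library or nanoparticle library 2. The count of 3 was 1 without vehicle library 2 or 3, and 2 without vehicle library 1 or nanoparticle library 2. Without nanoparticle library 1 it was 8, of which 2 were lower, where 64.8% of all genes passed.

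Among the other cystatins 10 of 21 were in the table and 4 passed the filter, of which 3 rose, where 17.0% of all tested genes rose. Cst7 encodes cystatin F, an inhibitor of cathepsin C in immune cells. It was at 3.11, 3.43 and 4.52 FPKM in vehicle and at 55.4, 60.0 and 57.4 FPKM in nanoparticle libraries 1 to 3, and its log2 change in limma was 3.66 (SE 0.134, adjusted p = 3.2e-05). Its nanoparticle libraries lay close together, and library 1 did not stand apart. The stefin A genes Stfa3 (log2 change 1.68, limma adjusted p = 0.00582) and Gm5483 (log2 change 0.63, limma adjusted p = 0.0160) rose as well, and these are near-copies of each other in a multigene family, so their reads may be split. The Gm5483 call was lost with libraries scaled to the same sum of FPKM (log2 change 0.21, limma adjusted p = 0.268) and with limma-voom (0.35, adjusted p = 0.124). Without vehicle library 1 or 2, or without nanoparticle library 2, the count was 2 in place of 3.

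Of the other WAP, Kazal, Kunitz and macroglobulin inhibitors 16 of 28 were in the table, and Spint1 was the 1 of 4 tested genes that changed. Among all tested genes 33.2% changed. Spint1, a membrane inhibitor of matriptase and hepatocyte growth factor activator, was at 118 to 123 FPKM in vehicle and at 32.1, 69.4 and 76.4 FPKM in nanoparticle libraries 1 to 3 (log2 change -1.10, SE 0.323, limma adjusted p = 0.0427). The Spint1 call was lost on leaving out any vehicle library or nanoparticle library 2 (limma count 0 in this list, 1 at an unadjusted p under 0.05), with no filter (limma adjusted p = 0.0936) and with the replicate number as a block (limma adjusted p = 0.0522). Without nanoparticle library 1 all 4 tested genes passed, Spint1 at a log2 change of -0.71, where 64.8% of all genes passed. Wfdc21, a further WAP gene, was at 195, 347 and 310 FPKM in vehicle and at 81.1, 691 and 771 FPKM in nanoparticle libraries 1 to 3 (limma adjusted p = 0.791). Like Wfdc17, it was below all vehicle libraries in nanoparticle library 1 and above them in libraries 2 and 3.

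The serine proteases that these inhibitors are known to trap were unevenly present. Elane and Ctsg, the granule proteases blocked by Slpi, and the related Prtn3 had at most 5 reads in any library, and Gzmb, the target of Serpinb9, was not analysed here. Plau encodes urokinase, the target of Serpinb2. It was at 304, 286 and 276 FPKM in vehicle and at 41.8, 136 and 148 FPKM in nanoparticle libraries 1 to 3. Every nanoparticle library was below every vehicle library, and library 1 was the lowest. The mean went from 289 ± 14.4 to 108 ± 58.0 FPKM (n = 3 per group, ± SD). In limma its log2 change was -1.60 (SE 0.474, adjusted p = 0.0432). That call was lost on leaving out any vehicle library or nanoparticle library 2 (limma adjusted p = 0.0575 to 0.127), with no filter (0.0978) and with the replicate number as a block (0.0502). Leaving nanoparticle library 1 out put Plau at a log2 change of -1.02 (limma adjusted p = 3.3e-05). Per length, Plau was above Serpinb2 in every vehicle library and nanoparticle library 3, and below it in nanoparticle libraries 1 and 2. Plat, the tissue activator, had 0 or 1 reads in vehicle and 59 to 85 reads in nanoparticle libraries.

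Of the 35 listed serine proteases 25 were in the table and 11 passed the filter, of which 6 rose and 1, Plau, fell. Among all tested genes 17.0% rose and 16.2% fell. F10, which encodes coagulation factor X, averaged 87.6 ± 2.21 FPKM with vehicle and 247 ± 36.5 FPKM with nanoparticles (± SD over 3 libraries each, limma adjusted p = 0.000658). Cfb, complement factor B, was at 0.268 ± 0.0198 and 8.76 ± 4.77 FPKM (± SD over 3 libraries each, limma adjusted p = 0.00111). The others that rose were C1ra, Htra1, Htra4 and Htra2, with log2 changes of 1.28, 0.83, 0.94 and 0.75. Cfb, Htra1 and Htra4 were below 1 FPKM in every vehicle library. They passed the filter only through the nanoparticle libraries, so the count of genes that rose includes genes tested because they were high there. The Htra2 call (limma adjusted p = 0.0448) was lost in 8 of 13 alternatives, among them libraries scaled to the same sum of FPKM (log2 change 0.34, limma adjusted p = 0.171). Leaving nanoparticle library 1 out put F10 and Cfb at log2 changes of 1.35 and 2.46.

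The cysteine cathepsins, targets of both cystatins and of Serpina3g, were abundant throughout. The summed level of the 11 listed genes was 5446 to 5992 FPKM in vehicle and 8783 to 9685 FPKM in nanoparticle libraries. The summed FPKM of all genes was also higher in nanoparticle libraries, and as a share of it the cathepsins were 1.69% to 1.82% in vehicle and 1.89% to 2.24% with nanoparticles. Of 10 tested genes 4 rose, Ctsz, Ctsk, Ctsl and Ctso, where 17.0% of all genes rose. With libraries scaled to the same sum of FPKM 2 rose and 2 fell. Ctsz, cathepsin Z, averaged 987 ± 17.3 FPKM with vehicle and 2438 ± 112 FPKM with nanoparticles (± SD over 3 libraries each, log2 change 1.30, SE 0.149, limma adjusted p = 0.00127). Ctsk, cathepsin K, was at 25.04 ± 1.07 and 67.8 ± 6.07 FPKM (± SD over 3 libraries each, limma adjusted p = 0.000347). The count of 4 was 2 without any 1 vehicle library or nanoparticle library 2. It was 7 without nanoparticle library 1, where 64.8% of all genes passed.

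Cathepsin S, encoded by Ctss, which trims the class II invariant chain, was the highest of them. It was at 3401, 3112 and 3051 FPKM in vehicle and at 4392, 4670 and 5314 FPKM in nanoparticle libraries 1 to 3, with no overlap, but its log2 change of 0.58 (SE 0.188) did not pass (limma adjusted p = 0.0559). It passed without nanoparticle library 1 (0.65, limma adjusted p = 0.000637), with no mean-variance trend (adjusted p = 0.00933) and with a filter of 5 FPKM (adjusted p = 0.0210). Ctsl, cathepsin L, was just past the threshold (log2 change 0.48, SE 0.146, limma adjusted p = 0.0480), and with libraries scaled to the same sum of FPKM its log2 change was 0.01. The Ctsl and Ctso calls were lost in 9 and 8 of 13 alternatives. For Ctsb (1030 ± 74.0 and 1362 ± 193 FPKM), Ctsc (50.7 ± 0.954 and 62.5 ± 19.6 FPKM) and Ctsh (52.4 ± 0.726 and 56.3 ± 5.41 FPKM, SD, n = 3 each) the test was not passed (limma adjusted p = 0.128, 0.409 and 0.551). Lgmn, legumain, was at 123 ± 5.33 and 80.6 ± 22.6 FPKM (± SD over 3 libraries each, limma adjusted p = 0.0662). Lgmn passed as lower with libraries scaled to the same sum of FPKM (log2 change -1.11, limma adjusted p = 0.00188), with limma-voom (-0.996, adjusted p = 0.00825), without nanoparticle library 1 (-0.41, limma adjusted p = 0.00849) and without nanoparticle library 3 (-0.83, limma adjusted p = 0.0264).

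**Figure D4:**
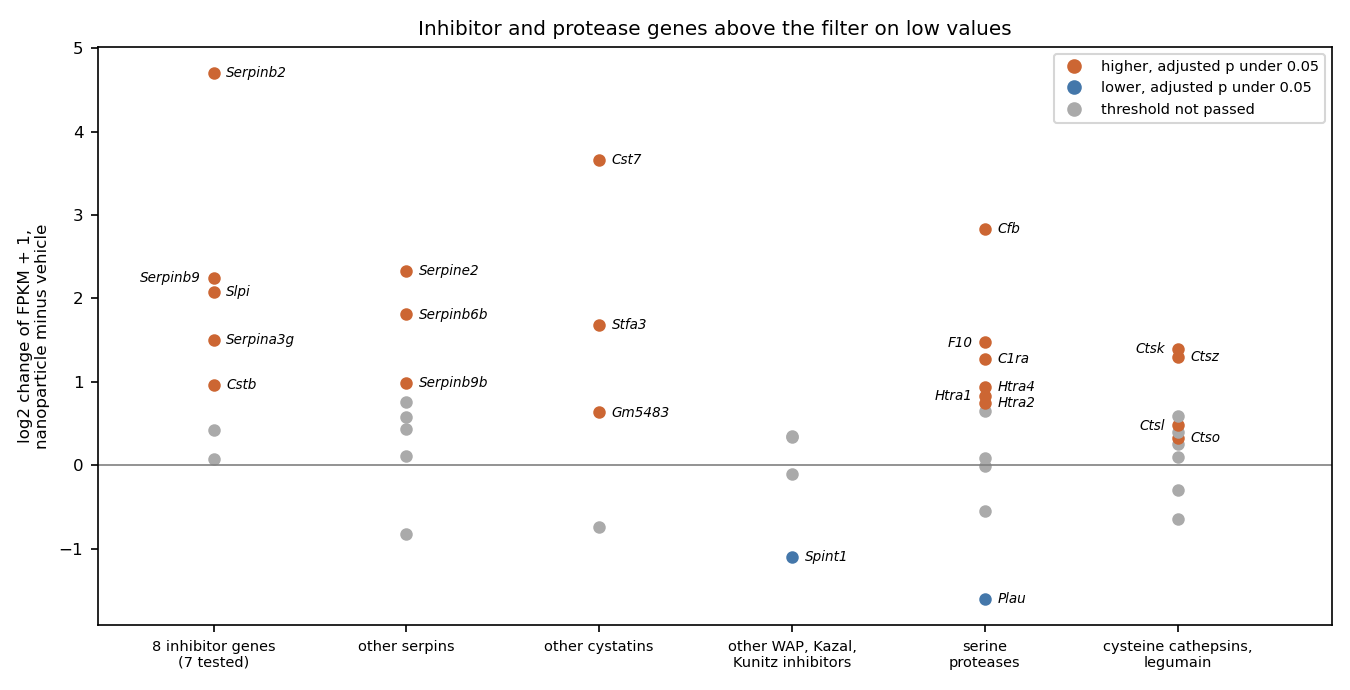
Log2 change of FPKM + 1, nanoparticle minus vehicle (vertical axis), of each gene above the filter in the 8 inhibitor genes and in 5 lists (columns). Each point is a gene, coloured by its call, and genes past the threshold are named. Spint1 and Plau are the 2 genes named below 0, and Serpinb2 and Cst7 are the highest points.

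Genes with the most similar profile were found for each tested inhibitor as the smallest root mean square difference over the 6 libraries, in log2(FPKM + 1) relative to the vehicle mean. For Slpi these were Bcl2a1d (difference 0.0581) and Relb (0.0958), and for Cstb they were Traf5 (0.0339) and Hcls1 (0.0423). For Wfdc17 they were Brk1 (0.0405) and Gss (0.0421), and for Cst3 Tomm40 (0.0451) and Samm50 (0.0452). For Serpinb2 they were Ccrl2 (0.251) and Ptges (0.333), for Serpinb9 Slco3a1 (0.104) and Palld (0.108), and for Serpina3g Rel (0.120) and Mllt6 (0.145). Between the inhibitors themselves, Cst3 and Wfdc17 were the closest pair (0.266).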

How the data were processed

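NEBNext Ultra II RNA libraries were made from 1 µg of total RNA and sequenced on an Illumina instrument, per the labels' protocols. The submitters' processing notes name CASAVA, STAR 2.5, HTSeq, edgeR 3.16.5 and DESeq2, and the builds mm10 and hg19, without their roles. The authors deposited 2 tables with identical values, treated as FPKM: the unit was inferred from the values, because multiplying by merged exon length (GENCODE M21) and 1 scale per library gave whole reads (within 0.01) for 95.8% to 96.1% of values above 0, including all values of the 8 inhibitors. The library scale is not the library total. For 364 abundant genes the length was searched for. Strand and read length are not given in the sources used here.

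limma 3.58.1 in R 4.3.3 (lmFit, eBayes with trend, group as single term) was fitted to log2(FPKM + 1), which understates the change of low genes. The threshold was a Benjamini-Hochberg adjusted p of 0.05. The fit was tested on simulated data in which no library stood apart as nanoparticle library 1 does here. The simulation thus does not show how the fit behaves with such a library. Exact permutation tests used scipy 1.17.1 and the alignment Biopython 1.88. Positions are those of GENCODE M21 on GRCm38 and sequences those of RefSeq on GRCm38.p6.

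Members, lists and tests were chosen with earlier results of these data known. Named were the 8 members, 12 target proteases, up to 5 changed genes with separate groups from each list of other inhibitors, and the 2 most similar genes per member; other proteases past the threshold were named after their values were seen.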

Additional observations from a re-analysis of the deposited data

How the results depend on the processing

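Across 13 alternatives Slpi, Serpinb2, Serpinb9 and Serpina3g kept their direction and stayed past the threshold, with log2 changes of 1.71 to 2.28, 4.14 to 5.02, 1.83 to 2.51 and 1.16 to 1.67. With libraries scaled to the same sum of FPKM the median log2 change of all genes was -0.44, and with limma-voom on reads scaled by totals it was -0.35. Under the first of these the log2 changes of Wfdc17 (-0.052), Cst3 (-0.39), Ctsb (-0.075), Ctsc (-0.21), Ctsh (-0.37) and Ctso (-0.09) had the opposite sign, and under limma-voom those of Cst3 (-0.27), Ctsc (-0.09) and Ctsh (-0.25). Leaving out 1 library in turn, the log2 change of Cst3 ranged from -0.087 (without nanoparticle library 3; -0.035 without library 2) to 0.35 (without nanoparticle library 1).

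Leaving out each library in turn gave 2141 to 6923 genes past the threshold in place of 3550, 4 to 7 of the inhibitors in place of 5, 1 to 8 of the other serpins, 0 to 4 of the other WAP, Kazal, Kunitz and macroglobulin inhibitors and 2 to 7 of the cathepsins. With no filter on low values limma called 0 genes of the WAP, Kazal, Kunitz and macroglobulin list (2 at an unadjusted p under 0.05). With the replicate number as a block, the calls were 0 in that list (1 at an unadjusted p under 0.05), where limma-voom called 1, and 2 of the cathepsins, and 2785 of all genes. Same-numbered libraries deviated together only weakly (correlations of 0.0654, 0.113 and -0.0577 across genes) and not every library correlated best with its own number, so the block was not used. Other causes of these changes were not tested. The Serpina3f ratio of reads without nanoparticle library 1, and all alternatives for the named related inhibitors and proteases, were chosen after seeing the data. Depth limited Serpina3f, where 3 reads correspond to 0.0627 to 0.0802 FPKM.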

Other observations

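The genes next to the inhibitors on the chromosomes differed in whether they moved. They were taken as the nearest protein-coding gene in the table on each side that did not overlap the inhibitor gene. Next to Wfdc17, the chemokine gene Ccl4 lay 39.3 kb before it and rose, with means of 437 ± 5.57 and 1359 ± 412 FPKM (± SD over 3 libraries each, log2 change 1.58, limma adjusted p = 0.00495), and the WAP gene Wfdc18 lay 2.75 kb after it and did not pass (limma adjusted p = 0.445). Serpinb9 lay between Serpinb6b, 24.2 kb before, and Serpinb9b, 9.46 kb after, and these 3 neighbouring serpins all rose. By this rule Serpinb2 lay between Serpinb7, which was at or below 0.157 FPKM in every library, and Serpinb8, which was at 5.63 ± 0.203 and 10.8 ± 4.93 FPKM (± SD over 3 libraries each, limma adjusted p = 0.0734). Serpinb10, whose span (107529003 to 107549271) overlaps the end of Serpinb2, is closer than Serpinb8. It was below the filter and had 31, 63 and 62 reads in vehicle and 1, 2 and 2 reads in nanoparticle libraries 1 to 3, opposite to Serpinb2. Pdxk, 9.12 kb after Cstb, encodes pyridoxal kinase and fell from 12.1 ± 0.458 to 2.52 ± 0.221 FPKM (± SD over 3 libraries each, log2 change -1.90, limma adjusted p = 8.6e-05), opposite to Cstb, while Rrp1, 12.6 kb before Cstb, was at 36.0 ± 0.574 and 39.5 ± 4.54 FPKM (limma adjusted p = 0.458).

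Among listed stromal markers Col1a1 and Col1a2 were at or below 0.0093 FPKM in every library, and Pdgfra and Lum were at most 0.125 FPKM. Dcn was at most 0.0164 FPKM in vehicle and at 2.39, 0.311 and 0.0889 FPKM in nanoparticle libraries 1 to 3. Pdgfrb was higher in every nanoparticle library (1.29, 1.03 and 0.834 FPKM) than in any vehicle library (0, 0.0553 and 0.0262 FPKM).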
